A study of Mus musculus with 2 samples.

Results

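The genes described here encode the standard subunits of the proteasome, with its activators and assembly chaperones. They were taken by name: every gene on the array called Psma, Psmb, Psmc, Psmd, Psme or Psmg followed by a digit, without the immunoproteasome genes Psmb8, Psmb9 and Psmb10. The rule found 45 genes among 34843 gene names, and 43 of the 45 were measured, meaning that the brightest probe of the gene was well above background on both arrays. One of the 45, Psmc3ip, encodes a meiotic recombination factor that only shares the start of its name with an ATPase subunit, so the counts below are also given without it where it matters.

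RNA came from sorted LSK cells of the bone marrow, which lack lineage antigens and carry Sca-1 and c-Kit; this gate holds stem cells and multipotent progenitors. The cells were C57BL/6 and carried Tet2KD/KD and Ezh2Δ/Δ, the genotype behind a transplanted myelodysplastic syndrome, and both groups shared this genotype. Secondary recipients gave the cells at 10 weeks from their transplant, which was 7 weeks from treatment with saline (PBS) or with DAC, that is decitabine, a nucleoside drug that depletes DNA methyltransferases. There was 1 array per group. No difference could therefore be tested, and every statement below describes those arrays. Not given in the sources used here are how many mice each array stands for, their age, the drug dose, how Tet2 was lowered and Ezh2 deleted, and whether the sort kept host cells out.

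The proteasome degrades proteins tagged with ubiquitin. Its core is a barrel of alpha rings, which gate the entrance, around beta rings, which hold the proteolytic sites. A regulatory particle caps the barrel: a base with an ATPase ring unfolds the substrate, and a lid removes the ubiquitin chain. Dedicated chaperones assemble both parts, and other activators can replace the regulatory particle. Dividing blood progenitors depend on the complex to clear cell cycle regulators, and it is the target of drugs used in plasma cell malignancy.

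On the arrays 56.8% (DAC) and 48.5% (PBS) of 55680 probes were well above background, and 0 spots were saturated on either. For scaling, each array's processed intensity was divided by its own 75th percentile, taken among the 25404 probes that both arrays detected; it was 813 (DAC) and 618 (PBS). A scaled log2 signal of 0 stands for that percentile, and a log2 difference is DAC minus PBS. The error available was that between repeated spots of 1 probe. It gave an SD of a difference of 0.24, 0.14 and 0.088 at low, middle and high signal, and it covers neither animals nor sorting nor amplification. The LSK markers Kit (2.64 on DAC, 2.52 on PBS) and Ly6a, which encodes Sca-1 (0.67 and 0.60), were measured on both arrays, as were Cd34 and Flt3, while Slamf1 was detected on neither. Of 20 markers of 6 other cell types, 13 were measured on both arrays, 1 was detected on the DAC array only, 1 on the PBS array only and 5 on neither, Ms4a1, Cd8a, Cdh5 and Col1a1 among them. Those measured included Itgam (5.64 and 6.19), which encodes the lineage antigen Mac-1, and 4 of the 13 differed by at least 2-fold: Pf4, Itga2b and Pecam1 higher and Cxcl12 lower on the DAC array. The part of other cell types in the proteasome values was not tested, and in sorted bulk RNA fewer cells of a type and less RNA per cell cannot be told apart.

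After scaling, proteasome genes were slightly lower on the DAC array than on the PBS array, by small steps spread over nearly every part of the complex. Of the 43 measured genes 35 had a difference below 0, against 48.6% of all 18222 measured genes, and the median difference of the 43 was −0.29, against 0.02 for all genes. The direction rests in large part on the scaling. Before it, many of the 35 genes had the higher processed intensity on the DAC array, whose 75th percentile was 813 against 618, and others had the lower. At 2-fold, 1 gene was higher (all genes 10.0%) and 0 were lower (all genes 6.85%). At 1.5-fold, 2 were higher (all genes 19.8%) and 8 lower (all genes 16.1%), or 7 lower without Psmc3ip. The 8 include Psmd12, whose other measured probe gave 0.77 in the opposite direction. Among 3682 other genes with mean signals between the quartiles of the proteasome genes, 3.23% were higher and 3.91% lower at 2-fold, 10.2% higher and 14.5% lower at 1.5-fold, and 54.7% below 0. The direction was thus shared by most genes while few of them reached a fold that stands out on these arrays. The quartiles of the differences were −0.44 and −0.057, and the SD among the 43 genes was 0.41, against 0.81 over all genes. In 25 genes the lower value exceeded 2 spot SD, in 4 the higher value did, and in 14 the arrays differed by less than that. The same yardstick was passed by 64.0% of all genes and by 72.9% of those other genes of like signal, so passing it says only that a difference was larger than the printing and scanning error.

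**Figure D1:**
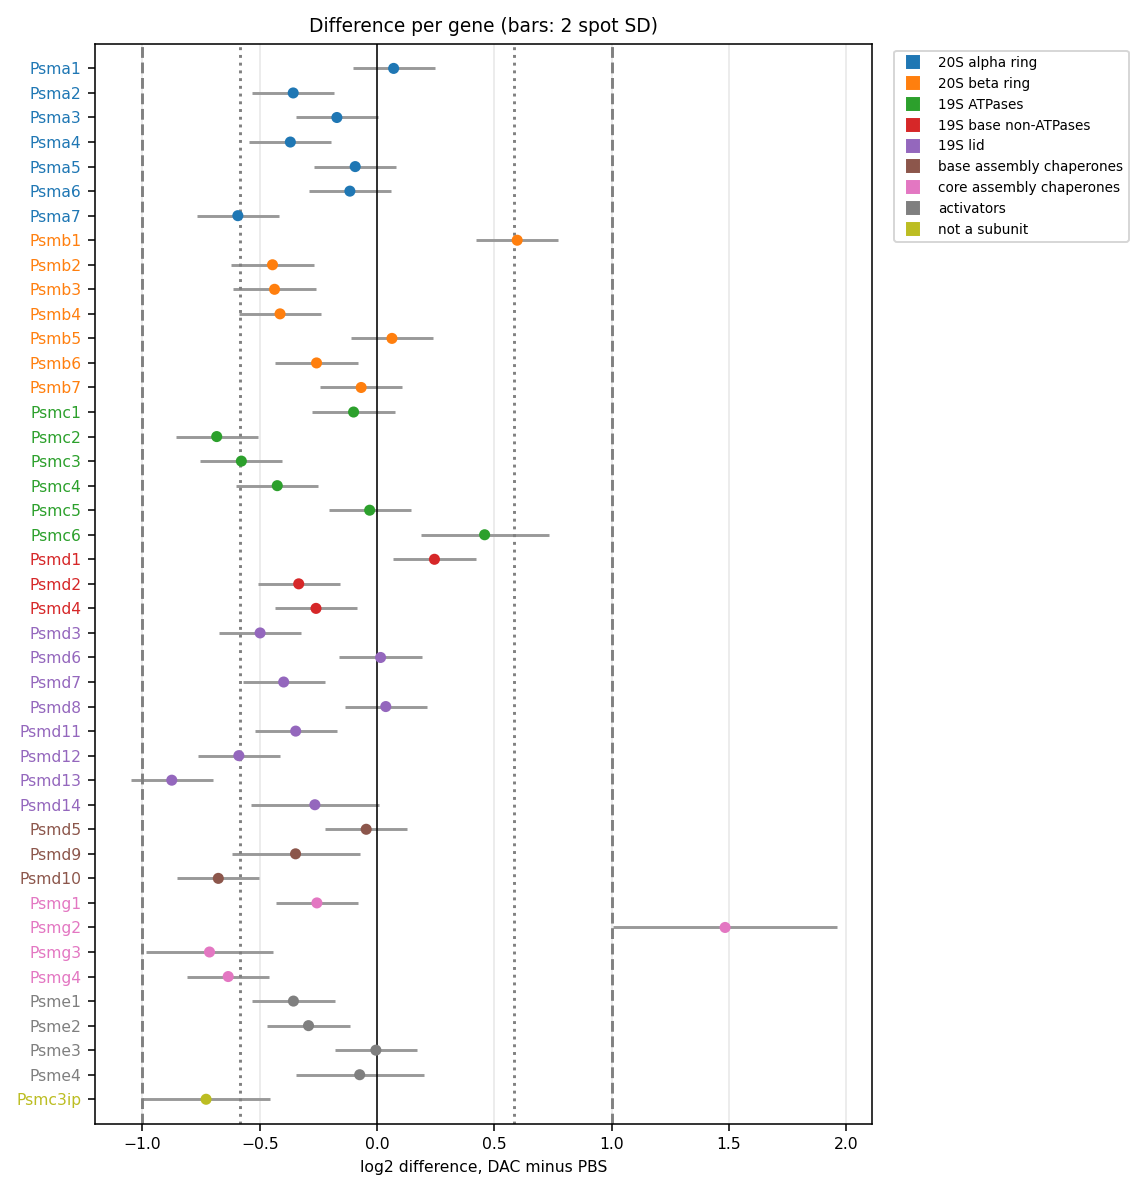
The log2 difference DAC minus PBS (horizontal axis) of each of the 43 measured genes, coloured by role, with bars of 2 spot SD, dotted lines at 1.5-fold and dashed lines at 2-fold. Most points lie left of 0 and within 1.5-fold, Psmd13 (−0.88) is the lowest and Psmg2 (1.48) is the only point beyond 2-fold.

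The alpha ring genes Psma1 to Psma7 were measured, and 6 of the 7 were lower on the DAC array, with a median of −0.17. Psma7, a subunit of the gate, was the lowest: its scaled log2 signal was 3.92 (DAC) against 4.51 (PBS), a difference of −0.59 or 1.51-fold. In processed intensity, before scaling, these signals were 12293 and 14089. Psma7 was the only alpha gene past 1.5-fold. At the other end Psma1 had signals of 2.32 and 2.25 and a difference of 0.071, less than 1 spot SD. Psma2 (−0.36) and Psma4 (−0.37, with −0.79 on its other measured probe) lay below −0.3, and Psma3, Psma5 and Psma6 lay between −0.17 and −0.093. Psma8, the testis form of an alpha subunit, was well above background on neither array.

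In the beta ring 5 of 7 measured genes were below 0, with a median of −0.26. Psmb5 encodes the subunit with chymotrypsin-like activity, the main target of proteasome inhibitors, and its signal was 1.85 (DAC) against 1.78 (PBS). That difference of 0.064 was within 1 spot SD, and its other measured probe gave −0.23. Psmb7, with trypsin-like activity, had signals of 2.58 and 2.65 and a difference of −0.068, also within 1 spot SD. Psmb6, with caspase-like activity, had signals of 2.19 and 2.44 and a difference of −0.26, close to 3 spot SD. These proteolytic genes were thus all within 1.5-fold. Of the beta subunits without a proteolytic site, Psmb2 (2.93 on DAC, 3.37 on PBS) had a difference of −0.45, Psmb3 of −0.44 and Psmb4 of −0.41. Psmb1 went the other way, with signals of 0.76 and 0.16 and a difference of 0.60, or 1.51-fold higher on the DAC array. It was read by 1 probe (mm9 chromosome 17, 15630098 to 15631393), and 3 of the 43 genes, Psmb1 among them, stayed above 0 under 12 ways of processing. These include the one used here, and for a gene with 1 probe some of the others leave its value unchanged. Psmb11, the thymus-specific beta subunit, was well above background on neither array. Over the whole core particle, 11 of 14 measured genes were below 0, with a median of −0.21.

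**Figure D2:**
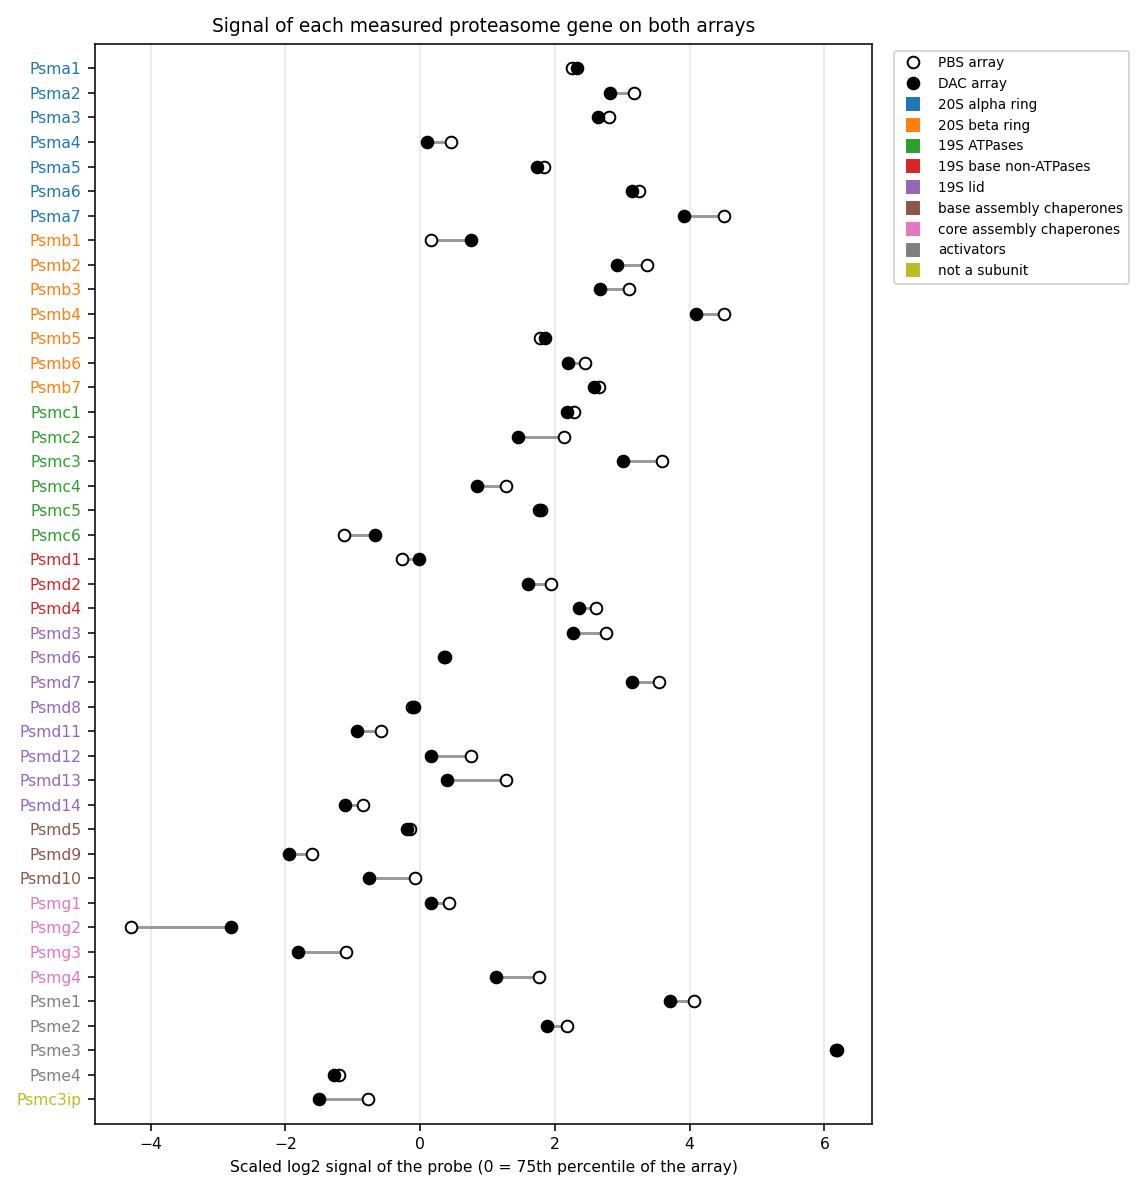
Scaled log2 signal (horizontal axis, 0 at the 75th percentile of the array) of the 43 measured genes on the PBS array (open circles) and the DAC array (filled circles), ordered by role, with gene names coloured by role. The filled circle lies left of the open one for 35 genes, and Psmg2 (−2.81 on DAC, −4.30 on PBS) has the widest gap. Different genes were read by different probes, so positions compare arrays within a gene and not genes with each other.

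Of the regulatory particle 13 of 17 genes were below 0, with a median of −0.33. The ATPase ring, which pulls substrates into the core, was uneven. Psmc2 was its lowest gene, with signals of 1.45 (DAC) and 2.13 (PBS) and a difference of −0.68 (1.61-fold lower). Its other measured probe gave −0.72, but the probes overlap (mm9 chromosome 5, 21309536 to 21309595 and 21309546 to 21309602) and are not independent readings. Psmc3 followed with −0.58 on its brighter and −0.63 on its other probe, the first just inside and the second just past 1.5-fold, and Psmc4 with −0.43. Psmc1 (−0.10) and Psmc5 (−0.031) differed by less than 2 spot SD. Psmc6, by contrast, had signals of −0.67 and −1.13 and a difference of 0.46, more than 3 spot SD above 0. Psmc6 was read by 1 probe, and its difference was 0.32 with normexp background correction and 0.15 with scaling to the spike-in probe. Subunits of 1 ring thus differed in opposite directions under the scaling used here, with Psmc6 the only ATPase gene above 0. Across 12 ways of processing Psmc6 stayed above 0, but Psmc5 reached 0.089 and Psmc1 0.035. The Psmc6 probe was also the dimmest of those used for the ring, with a mean signal of −0.90.

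The scaffold genes of the base are Psmd1 and Psmd2, and Psmd4 encodes a ubiquitin receptor. Psmd1 was higher on the DAC array by 0.24 (−0.021 against −0.27), while Psmd2 (1.61 against 1.94) was lower by a difference of −0.33 and Psmd4 (2.36 against 2.62) of −0.26. The sign of Psmd1 turned to −0.065 under scaling to the spike-in probe, the lowest value it took.

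The lid held the lowest gene of the whole complex. Psmd13, a structural lid subunit, had signals of 0.40 (DAC) and 1.28 (PBS), a difference of −0.88 or 1.83-fold lower, about 10 spot SD. In processed intensity, before scaling, the values were 1076 and 1499, lower on the DAC array as well, which did not hold for many other genes below 0. Its probe (mm9 chromosome 7, 148084248 to 148084307) is the only one for the gene, and under 12 ways of processing its difference lay between −1.18 and −0.81. Psmd13 and Psmc3ip were the only genes of the 43 at least 1.5-fold lower in all 12. Psmd12, another structural lid subunit, had a difference of −0.59 on its brighter probe (0.16 against 0.75; mm9 chromosome 11, 107358963 to 107359022). Its other measured probe, elsewhere in the gene (107347092 to 107347728), gave 0.77 in the opposite direction, and the mean of both was 0.089, so no direction can be given for this gene. Psmd14, the deubiquitinase of the lid, had a difference of −0.26 (−1.11 against −0.85). Psmd3 (−0.50), Psmd7 (−0.40) and Psmd11 (−0.35) were lower by more than 2 spot SD, and Psmd6 (0.015) and Psmd8 (0.037) were level within 1 spot SD. Over the 8 lid genes the median was −0.37, with 6 below 0.

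The assembly chaperones held the widest spread. Psmg1 and Psmg2 encode partners that act as 1 pair on the alpha ring, and Psmg3 and Psmg4 encode a second pair. Psmg3 (−1.82 on DAC, −1.10 on PBS) and Psmg4 (1.12 and 1.76) were lower by similar amounts, with differences of −0.71 and −0.63. Psmg1 had a difference of −0.26, with −0.29 on its other probe. Its partner Psmg2 was the only gene past 2-fold: the signals were −2.81 and −4.30, a difference of 1.48 or 2.80-fold higher. This was also the dimmest of the measured probes, with processed intensities of 116 and 31.4. Its difference was 0.50 with normexp background correction and 0.52 with no background subtraction, both below 1.5-fold. Of the chaperones of the base, Psmd10 (gankyrin) had signals of −0.76 and −0.081 and a difference of −0.68, but −0.0037 on its other, dimmer probe. Psmd9 had a difference of −0.35 and Psmd5 one of −0.046.

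The activators Psme1 and Psme2 form the interferon-inducible cap PA28, Psme3 its nuclear form, and Psme4 a further nuclear activator. Psme1 offers the best technical error, since its probe was printed 10 times. Its signal was 3.71 ± 0.062 for DAC (SD, n = 10 spots) and 4.06 ± 0.057 for PBS (SD, n = 9 spots after 1 outlying spot was left out). After scaling, the spots of the arrays did not overlap, with a highest value of 3.79 on the DAC array and a lowest of 3.98 on the PBS array. The difference of −0.36 thus exceeded the spot error several times over, although spots of 1 array are not replicates of the treatment. Spot error also does not cover the scaling between arrays. Before scaling, the processed intensities of Psme1 were 10626 (DAC) and 10334 (PBS), so its lower value came with the scaling. Its difference was −0.17 with quantile normalization and −0.16 with loess. Psme2 had a difference of −0.29 on its brightest probe and −0.43 on the next. Its remaining probe, designed on the transcript ENSMUST00000104958 and listed over a span of 56209736 to 56429032 on mm9 chromosome 14, gave 1.06, and the gene table also holds a close copy named Psme2b. Psme3 (6.18 on both arrays, difference −0.0048) and Psme4 (−0.074) were level within 1 spot SD. The Psme3 probe was the brightest of the set and also holds the longest run of alternating T and G or C and A, 13 of its 60 bases. Other near copies in the gene table are pseudogenes of Psma5, Psmb5, Psmb6 and Psmb7, and whether they contribute signal was not tested.

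Where a gene had more than 1 measured probe, the probes mostly shared a sign. This held for 8 of 11 genes, and the exceptions were Psmb5, Psmd12 and Psme2. The 8 include Psmc2, whose probes overlap, and Psmd10, whose dimmer probe gave −0.0037. With 35 of 43 genes below 0, a shared sign says little about how well probes match in size. The other 32 measured genes rested on 1 probe.

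The small common shift has to be read beside a shift of bright genes in general. The probes of proteasome genes were among the brighter ones: of the 43, 14 lay in the brightest decile of genes by mean signal and 12 in the next. In the brightest decile the median difference of all 1823 genes was −0.23, with quartiles of −0.42 and −0.011, so most genes there were below 0. The median of the 14 proteasome genes in it was −0.38, with all 14 below 0. In the next decile the medians were −0.092 for all genes (quartiles −0.41 and 0.22) and −0.27 for 12 proteasome genes, 10 of them below 0. In the decile below that they were −0.004 (quartiles −0.39 and 0.34) and 0.015, with 3 of 7 proteasome genes below 0. The 3682 other genes of like signal had a median of −0.061, and relative to it the median of the proteasome genes was −0.23. When the trend with signal was removed by loess, 29 of the 43 genes were below 0, with a median of −0.19 against −0.008 for all genes. The part of this trend in the proteasome values beyond these figures was not tested.

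**Figure D3:**
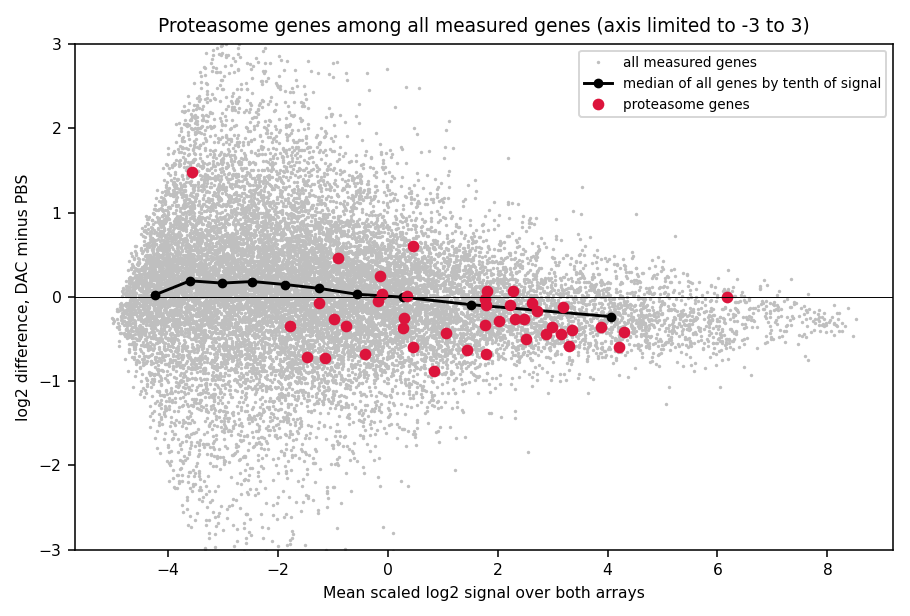
Log2 difference DAC minus PBS (vertical axis) against mean scaled log2 signal (horizontal axis) for all 18222 measured genes (grey), with the median of each decile of genes by signal (black) and the 43 proteasome genes (red). The black line falls to −0.23 in the brightest decile, and most red points lie below it. Grey points beyond −3 or 3 are outside the plotted range.

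The size of the shift also depended on how the arrays were scaled. The median of the proteasome genes ran from −0.60 with spike-in scaling to −0.19 with quantile normalization, and it was below that of all genes under every setting run. Where the scaling moved every gene equally, the median of the proteasome genes minus that of all genes was −0.31. It was −0.17 with normexp correction and −0.0997 with quantile normalization. Across 12 of the settings 27 genes stayed below 0, 3 (Psmb1, Psmc6 and Psmg2) stayed above 0 and 13 changed sign. The 12 include the setting used in the text and are not separate checks. Other scalings and the series matrix values shift every gene equally. A different detection call, no filter, and the mean over probes leave a gene without further measured probes unchanged.

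**Figure D4:**
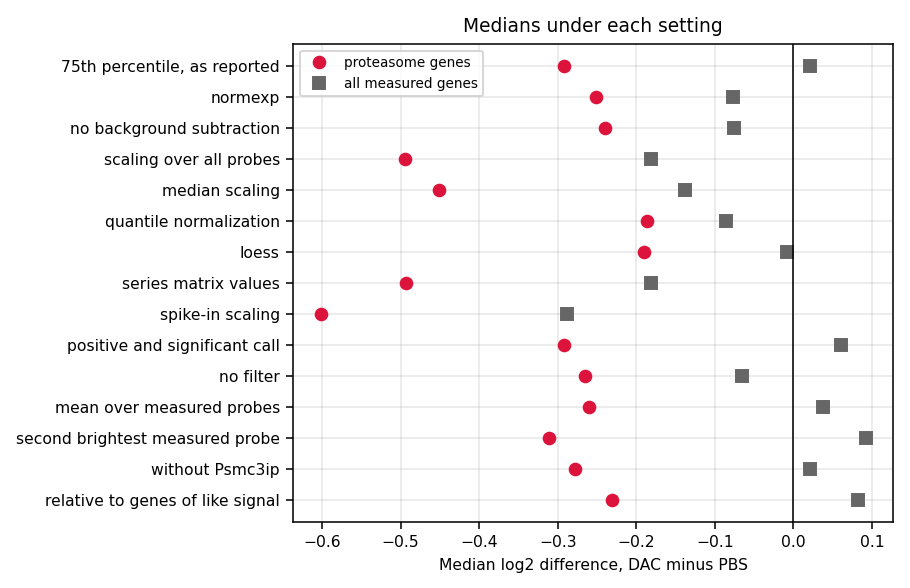
Median log2 difference DAC minus PBS (horizontal axis) of the proteasome genes (red circles) and of all measured genes (grey squares) under each processing setting (rows). The circle lies left of the square in every row, at −0.29 against 0.02 with the scaling used in the text.

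Other abundant complexes shifted in the same direction by a similar amount. All 76 cytoplasmic ribosomal protein genes measured were below 0, with a median of −0.34 and an SD of 0.15, and 52 of 76 mitochondrial ribosomal protein genes were, with a median of −0.22 and an SD of 0.66. Proteasome genes thus lay between these sets in the share below 0 (81.4%, against 100% and 68.4%). The sets had the same order in median signal: 5.48 for the cytoplasmic ribosomal, 1.78 for the proteasome and 0.26 for the mitochondrial ribosomal genes. The part of signal in these shares was not tested. With 1 array per group no difference between the sets could be tested. The immunoproteasome genes, whose products replace the proteolytic subunits in immune cells, had differences of −0.38 (Psmb8), −0.28 (Psmb9) and −0.019 (Psmb10), a median of −0.28.

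Genes that work with the proteasome were read through lists of 45 genes on the array, the immunoproteasome genes included. Of 43 measured, 7 were higher (all genes 10.0%) and 2 lower (all genes 6.85%) at 2-fold. Non-Psm components and partners of the particle had a median of −0.089 over 11 genes, with 7 below 0. Adrm1, a ubiquitin receptor of the base, had signals of −1.42 (DAC) and −0.54 (PBS) and a difference of −0.88. AI314180, the array's name for the proteasome adaptor Ecm29, had a difference of −0.98, and the lid component Shfm1 one of −0.30. The deubiquitinases Uchl5 and Usp14 had differences of −0.44 and 0.15, the core maturation factor Pomp one of −0.089, and the inhibitor Psmf1 was 1.63-fold higher (0.71). Txnl1, a thioredoxin of the regulatory particle, was the only gene of this list past 2-fold, at −1.83 (−4.85 against −3.01), on a dim probe. Its difference was −1.05 with normexp and −0.97 with no background subtraction, the latter inside 2-fold.

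Ubiquitin itself was mostly lower, with 5 of 6 genes of the ubiquitin and E1 list below 0. The polyubiquitin gene Ubb had signals of 6.19 and 6.69 and a difference of −0.51, and Rps27a, which encodes ubiquitin fused to a ribosomal protein, had a difference of −0.22. Uba6, the alternative activating enzyme, was 5.19-fold lower (−3.18 against −0.80) on 1 probe, between −2.69 and −1.79 under 12 settings. The main activating enzyme gene Uba1 was higher by 0.26.

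Shuttle and extraction factors deliver substrates. Of 13 measured, 9 were above 0 (9366 of all 18222 genes), with a median of 0.43, and 4 were at least 2-fold higher (all genes 10.0%), among them Bag6 (1.38, and 0.49 on its other probe), Ubqln4 (1.22) and Sqstm1. Bag6 was at 0.94 as the mean of its probes, and Ubqln4 at 0.78 with normexp, 0.76 with no background subtraction and 0.91 with spike-in scaling, all below 2-fold. Sqstm1, 2.02-fold higher on its brightest probe, cannot be given a direction, since its other measured probe gave −1.22. The segregase gene Vcp was higher by 0.48, and its cofactor Nsfl1c had the lowest difference of this list, −0.57. Among 10 measured regulators of proteasome genes 8 were above 0 (9366 of all 18222 genes), with a median of 0.35, and 3 were at least 2-fold higher (all genes 10.0%). The small Maf gene Mafg was 3.23-fold higher (1.69) on its brightest probe. Its 4 probes were all above 0 but ran from 0.53 to 2.50, and the second brightest, at 0.90, was inside 2-fold. The NF-Y subunit genes Nfya (1.12) and Nfyc (1.05, and 0.42 on its other probe) were past 2-fold here, and Nfyb was not (0.13). Under other settings Nfya went down to 0.81 and Nfyc to 0.74, so neither kept its place past 2-fold. Nfe2l1, the transcription factor that restores proteasome genes when the complex is inhibited, had signals of −2.88 and −2.36 and a difference of −0.52, and its relative Nfe2l2 one of 0.36. The probes of these lists were dimmer, with median signals of −1.38 for the shuttles and −1.21 for the regulators, and all genes of the decile around a signal of −1.24 had a median difference of 0.10.

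**Figure D5:**
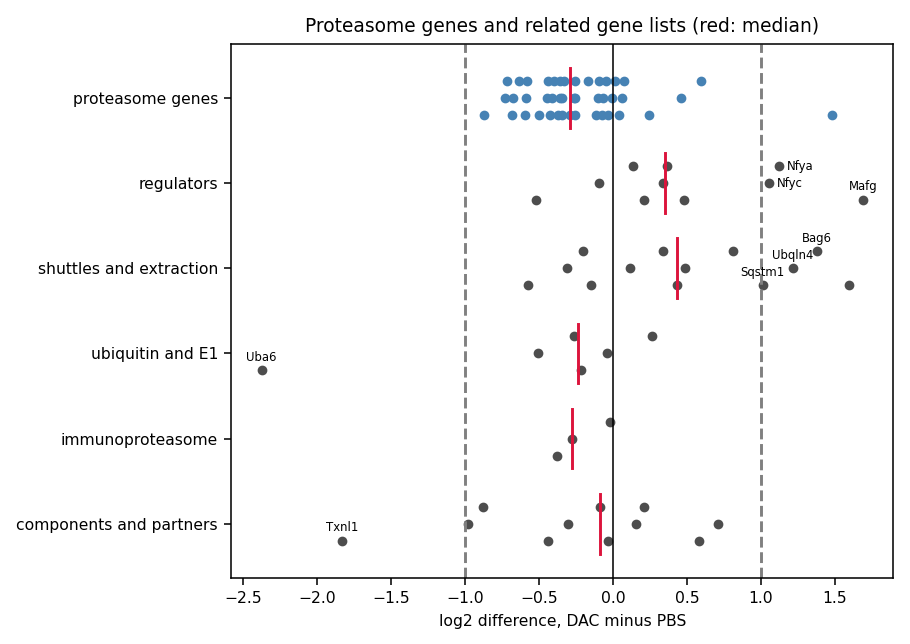
Log2 difference DAC minus PBS (horizontal axis) of the 43 measured proteasome genes (blue) and of the measured genes of the related lists (grey), with red bars at the median of each and dashed lines at 2-fold. Medians are −0.29 for the proteasome genes, 0.35 for the regulators and 0.43 for the shuttles, and the genes past 2-fold that the text describes are named.

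Nfe2l1 acts with small Maf proteins through the antioxidant response element, whose core TGACNNNGC was looked for on both strands of the 250 bases before each start, with the NF-Y box CCAAT, in promoter sequences of RefSeq (GRCm38.p6). Promoters were found for 37 of the 45 genes. The element core was in 5 of the 37 (13.5%), against 11.5% of 27025 genes in the table, and the NF-Y box was in 14 (37.8%), against 37.5%. Both shares are thus near those of all promoters in this window. The 5 promoters with the element core are shown because they include 2 of the 3 proteolytic subunit genes. The differences of their genes on the brightest probes also had both signs. Each is 60 bases on the strand of the gene, with the core in capitals.
Psmb5: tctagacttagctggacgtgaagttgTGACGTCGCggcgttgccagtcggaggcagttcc
Psmb6: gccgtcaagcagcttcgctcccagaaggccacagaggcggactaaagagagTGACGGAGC
Psmc6: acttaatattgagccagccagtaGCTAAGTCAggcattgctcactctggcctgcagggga
Psmd12: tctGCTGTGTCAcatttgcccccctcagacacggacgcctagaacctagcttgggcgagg
Psmd9: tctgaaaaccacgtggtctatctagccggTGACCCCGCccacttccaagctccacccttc
In GRCm38.p6 these windows lie at chr14:54618009-54618068 (minus strand, Psmb5), chr11:70525297-70525356 (plus strand, Psmb6), chr14:45329574-45329633 (plus strand, Psmc6), chr11:107479278-107479337 (plus strand, Psmd12) and chr5:123228130-123228189 (plus strand, Psmd9). In Psmc6 and Psmd12 the core runs on the opposite strand to the gene. The differences of the 5 genes were 0.064, −0.26, 0.46, −0.59 and −0.35, a median of −0.26 with 3 below 0, and the 31 measured genes whose promoter lacked the core had a median of −0.29 with 27 below 0. Of the 5, Psmb5 differed by less than its spot SD, and Psmd12 has no clear direction because its probes disagree. A match is a description of the letters and does not show binding.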

How the data were processed

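One Cy3 array per group (DAC, PBS) was used. Agilent's Feature Extraction software (10.7.3.1, per the file headers) read the scans. The deposited intensity (processed signal) was background-subtracted and spatially detrended, not normalized between arrays. The deposited series matrix holds log2 values with a median of 0 per column; its baseline per probe is unknown, its column difference had slope 1 and offset −0.60 against the scanner values of 55680 probes, and only differences were used.

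Spots called non-uniform or outlying were left out and log2 values of repeated spots averaged. Detection of a probe, well above background, needed 50% or more of its spots; 45.6% of probes were so on both arrays, hence scaling to the 75th percentile over those. A gene, by the name in the file, took its brightest probe. Alternatives used limma 3.58.1 (normexp, offset 50) and statsmodels 0.14.6 (lowess, span 0.3). The calculation was tested on simulated data.

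Genes were named if past 1.5-fold (related lists 2-fold), extreme in their role, proteolytic, brightest or dimmest, or with probes of opposite direction; others named were chosen after their values were seen. Some genes the rule names are not reported here. Cytoplasmic ribosomal genes were kept by full name, which leaves out kinases sharing the prefix. Genes and lists were chosen with earlier results of these data known.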

Additional observations from a re-analysis of the deposited data

How the results depend on the processing

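No paired analysis was possible because each group has 1 array, so the groups share fewer than 2 replicate numbers, and no array could be left out. The count of proteasome genes at least 2-fold higher (1) became 0 with normexp, with no background subtraction and with the second brightest measured probe (11 genes), and 2 with no filter on dim probes. The count at least 2-fold lower (0) became 1 with scaling over all probes, median scaling and series matrix values, and 3 with spike-in scaling, which rests on 1 of 10 spike-in probes. The count at least 1.5-fold higher (2) became 0 with normexp and no background subtraction, and 1 with scaling over all probes, median scaling, series matrix values, spike-in scaling and the second probe. The count at least 1.5-fold lower (8) became 4 with normexp, no background subtraction and loess, 5 with quantile normalization, 15 with scaling over all probes and series matrix values, 22 with spike-in scaling and 3 with the second probe. It became 5 relative to genes of like signal, an alternative chosen after seeing the data. The median (−0.29) became −0.49 with scaling over all probes and series matrix values, −0.45 with median scaling, −0.19 with quantile normalization and loess, and −0.60 with spike-in scaling. Psmd12 turned to 0.089 with the mean over probes and 0.77 with the second probe, and Sqstm1 to −0.10 and −1.22. The cause was not tested, except that scaling shifts all genes alike. The median of the proteasome genes kept its sign in every setting run. Dim probes such as that of Psmg2 limit what can be read.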
